A study of Mus musculus with 2 samples.

Results

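The SoxF and ETS transcription factors of endothelial cells were followed as 10 genes. They were the SoxF genes Sox7, Sox17 and Sox18, the ETS genes Erg, Fli1, Ets1, Ets2 and Elk3, and the basic helix-loop-helix genes Tal1 and Lyl1. Each was found by its symbol, and they made up 10 of the 28692 genes counted. The study sequenced RNA of single CD31+ cells from the mesentery of C57BL/6 mice at P8, to learn which states endothelial cells take after the loss of Flcn. Flcn encodes folliculin, a tumor suppressor that keeps the transcription factor Tfe3 in the cytoplasm. In Flcn iΔEC mice, floxed Flcn alleles were deleted by a tamoxifen-inducible Cre under the Cdh5 promoter, which is active in endothelial cells, whereas the labels name the control only as such. Mice of both groups received 40 µg of 4-hydroxytamoxifen per subcutaneous injection, the earliest at P2 and the last at P6.5, with others at P3.5 and P5. Each group was 1 library made from the pooled cells of 3 mice. With 1 library per group there was no replicate, no test was run, and each interval given is a 95% interval for counting error only.

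SoxF proteins bind short DNA motifs through an HMG box and share much of their work in the formation of vessels. Sox17 is known for arterial identity, Sox18 for the induction of Prox1 in the embryonic vein, from which lymphatic vessels arise, and Sox7 for vascular development together with both. ETS proteins recognise a GGAA core that is present in the control regions of many endothelial genes. Erg and Fli1 maintain endothelial identity, Ets1 and Ets2 act in angiogenesis downstream of growth factor signals and in lymphocytes, and Elk3 is a repressor that mitogen signals can turn into an activator. Tal1 and Lyl1 are close relatives that pair with E proteins and join Lmo2, Ldb1 and Gata factors on DNA. Tal1 is required for the first blood cells, and Lyl1 is expressed in B cells and in endothelium, where it takes part in the maturation of vessels.

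Values are counts of unique molecular identifiers (UMIs), each of which stands for 1 captured RNA molecule read from its 3′ end. There were 64639756 UMIs in 6814 cells of the control library, where the median cell had 7283. In the Flcn iΔEC library 4459 cells had 60805779 UMIs, and the median cell had 8587. A cell was called endothelial with at least 2 UMIs of Cdh5, the gene of VE-cadherin. This gave 566 control cells (8.31%) with a median of 16127 UMIs, and 892 of the 4459 Flcn iΔEC cells with a median of 24415. Of these, 22 control and 21 Flcn iΔEC cells had exactly 2 Cdh5 UMIs, and a further 164 and 137 cells with 1 Cdh5 UMI were placed in no class. For each group of cells, UMIs were summed and scaled to counts per 1000000 UMIs (CPM). Where 2 values stand together, the first is of the control and the second of the Flcn iΔEC library.

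Endothelial cells were assigned to 5 types by the highest of 5 marker scores, none of which contains a member. Because expression forms a range rather than separate types, the classes are called LEC-like, AEC-like, capillary-like, VEC-like and HEV-like, for lymphatic, arterial, capillary, venous and high endothelial venule cells. Of control endothelial cells 88 (15.5%) were LEC-like, and of Flcn iΔEC endothelial cells 335 (37.6%) were. AEC-like cells numbered 121 (21.4%) and 149 (16.7%), capillary-like cells 157 (27.7%) and 62 (6.95%), VEC-like cells 114 (20.1%) and 206 (23.1%), and HEV-like cells 51 (9.01%) and 69 (7.74%). The remaining 35 control cells (6.18%) and 71 Flcn iΔEC cells (7.96%) were unassigned, and 193 cells of both libraries, the unassigned ones among them, lay near a limit, with a gap of under 0.2 between their highest scores. LEC-like cells were split by Lyve1, AEC-like cells by Cxcl12 and VEC-like cells by Prox1, which gave 8 classes. Median levels per 10000 UMIs of the types' own genes and of other types' genes show how far the classes overlap. In LEC-like cells of the control and Flcn iΔEC libraries, the lymphatic genes had medians of 26.9 and 25.9, against 10.7 and 7.02 for the arterial genes. In VEC-like cells the arterial genes, which include Fbln2, had medians of 46.8 and 23.2 and lay above the venous genes in both libraries, which had 38.3 in the control. AEC-like cells had medians of 74.6 and 50.6 for the arterial and 6.64 and 11.1 for the venous genes. Capillary-like cells had 31.6 and 31.4 for the capillary and 9.68 and 5.90 for the venous genes. HEV-like cells had 12.1 and 8.58 for the high endothelial venule and 7.85 and 9.08 for the venous genes.

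The libraries stood apart in more than genotype. Endothelial cells of the control had 5 Xist UMIs and those of Flcn iΔEC mice 25529, so the pooled mice differed in sex, and sex and genotype cannot be told apart. In clusters computed without the members, cells of a class often lay in different clusters in each library. The largest cluster of Lyve1-low LEC-like cells held 60.3% of them in the control, and a different cluster held 43.3% in the Flcn iΔEC library. For Lyve1-high LEC-like cells these shares were 43.3% and 52.0%, for Cxcl12-high AEC-like cells 56.9% and 69.2%, for Prox1-low VEC-like cells 49.5% and 65.7%, and for Prox1-positive VEC-like cells 26.7% and 43.1%, each in different clusters. The largest cluster was the same in both libraries for Cxcl12-low AEC-like cells, with 54.3% and 69.1%, for capillary-like cells, with 31.2% and 30.6%, and for HEV-like cells, with 58.8% and 39.1%. Leukocyte RNA also differed, since Ptprc, the gene of CD45, was at 81.6 CPM in the endothelial cells of control and 32.4 CPM in those of Flcn iΔEC mice. At least 2 Ptprc UMIs were present in 137 control (24.2%) and 144 Flcn iΔEC endothelial cells (16.1%). Some clusters of the endothelial cells were led by genes of other cell types. Those led by B-cell genes such as Igkc held 18 and 11 cells, by T-cell genes such as Cd3d 16 and 6, and by Ifng and Klrd1 9 and 19. The cluster led by epithelial genes such as Spink4 and Epcam held 44 and 26, and that led by hemoglobin genes 0 and 48. The part of these cells in the values was not tested. The proliferation gene Mki67 stood at 96.0 and 59.9 CPM. The libraries shared 6 cell barcodes. Flcn itself was nearly equal, with 10.2 CPM in endothelial cells of the control, 9.74 CPM in those of Flcn iΔEC mice, and a log2 ratio of -0.07 whose interval includes 0, and counts from the 3′ end do not check the deletion.

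Positions are on GRCm38 (mm10) from the GENCODE vM21 annotation, which held 28339 of the 28692 gene identifiers. Sox7 (ENSMUSG00000063060) lies on chromosome 14 from 63943673 to 63950732, Sox17 (ENSMUSG00000025902) on chromosome 1 from 4490931 to 4497354, and Sox18 (ENSMUSG00000046470) on chromosome 2 from 181669836 to 181671640. Erg (ENSMUSG00000040732) and Ets2 (ENSMUSG00000022895) are neighbours on chromosome 16, from 95359169 to 95586593 and from 95702075 to 95721051. Fli1 (ENSMUSG00000016087) and Ets1 (ENSMUSG00000032035) are neighbours on chromosome 9, from 32422204 to 32542861 and from 32636221 to 32757820. Elk3 (ENSMUSG00000008398) lies on chromosome 10 from 93247414 to 93311135, Tal1 (ENSMUSG00000028717) on chromosome 4 from 115056426 to 115071755, and Lyl1 (ENSMUSG00000034041) on chromosome 8 from 84701457 to 84704715. The 10 genes code for proteins, and for 0 of them did another counted gene overlap on the same strand.

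The first comparison asked which members mark endothelial cells against the lymphocytes of the same library. CD31+ cells of the mesentery include many lymphocytes, from lymph nodes and other lymphoid tissue, and these cells share several ETS factors with endothelium. They also show how much free RNA a droplet carries. Background cells were 5123 control and 2573 Flcn iΔEC lymphocytes, made up of T cells (2403 and 958), B cells (2374 and 1344) and innate lymphoid and NK cells (346 and 271). With at least 50 summed counts and a ratio of at least 2-fold in both libraries, 7 of 10 members were higher in endothelial cells, where 28.2% of 12483 genes were. They were Sox7, Sox17, Sox18, Erg, Ets2, Elk3 and Tal1, and 0 members were 2-fold lower in both libraries. Ets1 came closest, at 0.5005 of the lymphocyte level in the control, just inside the limit, and at 0.423 in the Flcn iΔEC library.

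Sox18 had endothelial levels of 387 and 268 CPM, and lymphocyte levels of 1.13 and 1.30 CPM. Sox17 had 162 and 79.5 CPM in endothelial cells, against 0.651 and 0.521 CPM in lymphocytes. Sox7 had 59.1 and 27.6 CPM, against 0.265 and 0.0435 CPM in lymphocytes, the last from 1 UMI. The SoxF genes were thus at least 152-fold higher in endothelial cells of either library. Erg was at 103 and 74.4 CPM in endothelial cells, and lymphocytes had 0.868 and 1.13 CPM. Tal1, which was the lowest member in the control, was at 31.4 and 25.4 CPM, and lymphocytes had 0.289 and 0.348 CPM. Erg and Tal1 therefore belonged to the same endothelial group as the SoxF genes. Elk3 was 10.1-fold and 10.8-fold higher in endothelial cells, and among lymphocytes it was highest in innate lymphoid and NK cells, at 79.6 and 79.5 CPM. Ets2 was 3.33-fold and 2.60-fold higher.

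The other members were shared with lymphocytes. Fli1 was at 185 and 227 CPM in endothelial cells and at 111 CPM in the lymphocytes of both libraries, so its ratio lay on either side of the limit, at 1.67 and 2.05. Ets1, a regulator of lymphocyte development, was lower in endothelial cells, at 263 and 181 CPM, than in T cells, at 620 and 516 CPM. Lymphocytes as a whole had 525 and 427 CPM of it. Lyl1 was at 48.7 and 14.7 CPM in endothelial cells, against 88.5 and 79.4 CPM in B cells and 2.35 and 0.865 CPM in T cells. It was thus a gene of both B cells and endothelial cells, and its endothelial values have to be read beside those of B-cell RNA.

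To compare cells of unequal depth, each cell with at least 5000 UMIs was thinned at random to 5000 UMIs. This left out 28 control and 13 Flcn iΔEC endothelial cells and 705 and 190 lymphocytes. Before thinning, the cells kept had median depths of 16773 and 24646 UMIs in endothelial, 7692 and 7992 in T cells, and 7119 and 8448 in B cells. A Sox18 UMI was then present in 78.3% and 68.3% of endothelial cells, and in 0.179% and 0.875% of T cells. Without thinning the endothelial shares were 94.7% and 95.2%. Sox7 was present in 29.6% and 12.9% of endothelial cells and in 0.179% of control T cells, while 0 of 914 Flcn iΔEC T cells had a UMI, which allows a share of up to 0.328%. Without thinning Sox7 was present in 60.4% and 44.7% of endothelial cells. Lyl1 was present in 23.4% and 6.71% of endothelial cells, in 0.895% and 0.219% of T cells, and in 34.7% and 32.1% of B cells. Without thinning its endothelial shares were 50.7% and 29.5%. The lower shares of Sox7 and Lyl1 in the Flcn iΔEC library were thus present at equal depth.

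The next comparisons followed the members across the vessel types within each library. Arteries, veins, capillaries and lymphatic vessels differ in pressure, flow and exchange, and their endothelium is set apart by factors that include SoxF and ETS proteins. Sox17 acts with Notch in arteries, and Sox18 acts upstream of Prox1 in the lymphatic lineage. Comparing types inside a library keeps the pool of mice and the library the same on both sides. The depth of cells still differed by type, with medians from 12333 and 16301 UMIs in capillary-like to 39250 and 40827 in HEV-like cells. LEC-like cells were compared with all blood endothelial types, and AEC-like with VEC-like cells.

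**Figure D1:**
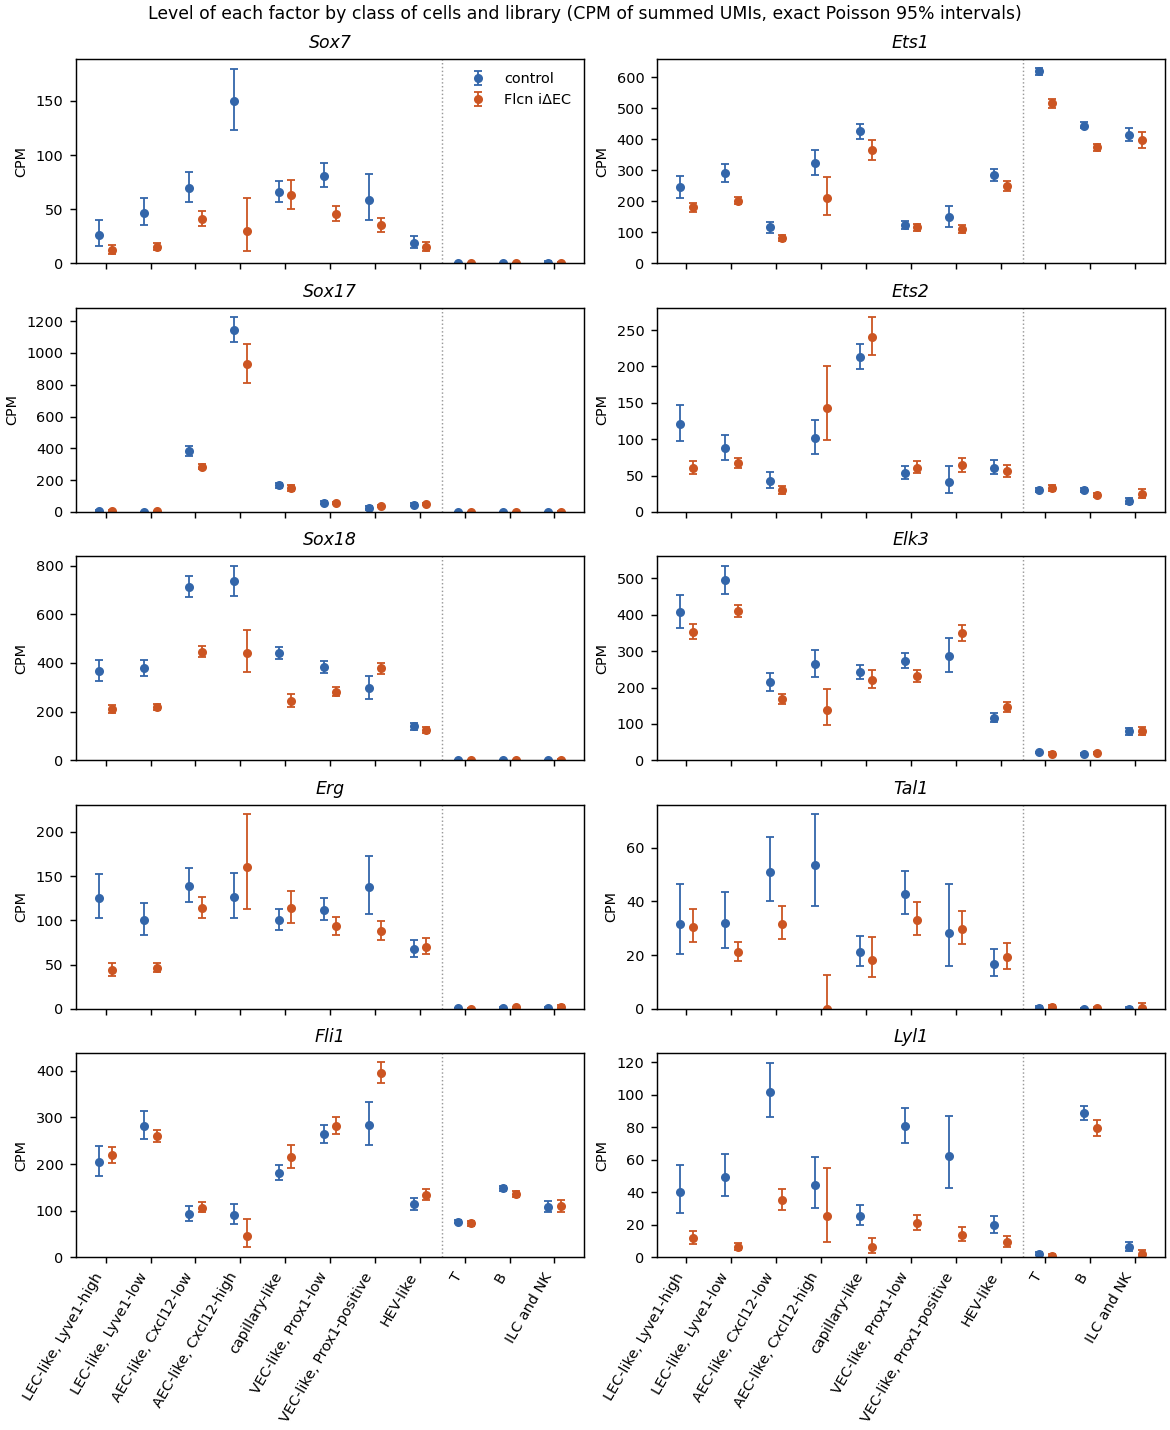
Level of each factor (CPM of summed UMIs, linear axes from 0) in 8 endothelial classes, left of the dotted line, and 3 lymphocyte classes, in the control (blue) and Flcn iΔEC (orange) library. Bars are exact Poisson 95% intervals, or the limit set by 3 counts where the count was 0, and Sox17 rises to 1146 and 928 CPM in Cxcl12-high AEC-like cells while Lyl1 is lower in the Flcn iΔEC library in each endothelial class.

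Sox17 had the widest range of the 10 members. AEC-like cells had 645 and 326 CPM, and VEC-like cells 50.9 and 45.5 CPM. The arterial level was higher by factors of 12.7 (10.8 to 15.0) and 7.18 (6.32 to 8.17). Within AEC-like cells, the Cxcl12-high class had more than the Cxcl12-low class, with 1146 against 383 CPM for the control and 928 against 285 CPM for Flcn iΔEC mice. The order was therefore the same in both libraries, with Cxcl12-high AEC-like cells first, then Cxcl12-low AEC-like and capillary-like cells, the last at 168 and 149 CPM. Of the 7 pairs of neighbours in the order of the 8 classes, 6 were separated beyond counting error in each library. Among the 6 is the pair of LEC-like classes, which lay under the minimum of 50 counts in both libraries. In the control it set 5 UMIs of Lyve1-high cells against a count of 0. LEC-like cells came last, with 5 UMIs (2.44 CPM) for the control and 36 UMIs (3.67 CPM) for Flcn iΔEC mice. In Lyve1-low LEC-like cells of the control the count was 0, which allows up to 2.39 CPM. After thinning, Sox17 was present in 1.18% and 0.896% of LEC-like cells, against 0.358% and 0.219% of T cells and 76.5% and 72.1% of AEC-like cells. The Lyve1-high and Lyve1-low LEC-like classes had 19 and 17 UMIs in the Flcn iΔEC library, and with counts this low a difference between the libraries in LEC-like cells was not detectable.

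Sox17 was the only member past 2-fold between LEC-like and blood endothelial cells in both libraries, where the LEC-like level was 0.0122 and 0.0297 of that in blood endothelial cells. This was 1 of 10 members lower, where 7.90% of 11002 genes were, and 0 members were higher, where 3.59% were. Elk3 came closest on the other side, with LEC-like levels of 460 and 391 CPM against 218 CPM in the blood endothelial cells of both libraries. Its ratios of 2.11 and 1.80 lay on either side of the limit. Sox7 was lower in LEC-like cells, at 0.611 and 0.392 of the blood endothelial level. Erg differed between the libraries in this comparison. It was 1.06 times the blood endothelial level in control LEC-like cells, with an interval of 0.914 to 1.22, and 0.482 times (0.433 to 0.536) in Flcn iΔEC LEC-like cells. Sox18, the SoxF gene best known from lymphatic development, was at 0.933 and 0.725 of the blood endothelial level.

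Between AEC-like and VEC-like cells, 1 of 10 members was 2-fold higher in both libraries, where 2.85% of 8957 genes were, and 1 was lower, where 2.63% were. The higher gene was Sox17, and the lower was Fli1. Fli1, the ETS factor closest to Erg in sequence, was at 92.0 and 103 CPM in AEC-like cells against 268 and 334 CPM in VEC-like cells. Its ratios were 0.344 (0.294 to 0.401) and 0.308 (0.276 to 0.344), so its order was opposite to that of Sox17. Erg did not follow Fli1, with ratios of 1.16 and 1.29. Ets1 was 1.46-fold higher in AEC-like cells of the control, but in those of Flcn iΔEC mice it was at 0.795 of the VEC-like level. Within AEC-like cells Ets1 was 2.78-fold and 2.58-fold higher in the Cxcl12-high class, and that class held 51 of the 121 control but 13 of the 149 Flcn iΔEC cells of the type.

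Capillary-like cells were set apart by Ets2 and Ets1. Ets2 was at 213 and 241 CPM in capillary-like cells against 51.2 and 62.3 CPM in VEC-like cells, ratios of 4.16 (3.49 to 4.97) and 3.87 (3.35 to 4.48). Ets1 was at 426 and 364 CPM in capillary-like cells and at 128 and 113 CPM in VEC-like cells, ratios of 3.32 and 3.22. Both genes were highest in this class among the endothelial classes of each library. In HEV-like cells, which line the vessels through which lymphocytes enter lymph nodes, Ets1 was 2.22-fold and 2.21-fold above VEC-like cells. Sox18 was lowest there, at 139 and 124 CPM, or 0.377 and 0.380 of the VEC-like level. The low level was not particular to Sox18. Sox7 was at 0.246 and 0.364 and Fli1 at 0.429 and 0.402 of the VEC-like level. In the control, HEV-like cells also had the lowest Sox7, Erg, Elk3, Tal1 and Lyl1 of the 8 classes, while in the Flcn iΔEC library other classes had. For Sox7, Tal1 and Lyl1, counting error did not separate them from the next class. Among the 5 types in control cells with 0 Ptprc UMIs, Sox7, Elk3 and Lyl1 were still lowest in HEV-like cells. Tal1 and Erg were not, and Erg was at 139 CPM in these 12 HEV-like cells against 135 CPM in VEC-like cells. No share over all genes stands beside these ratios. HEV-like cells also had more leukocyte RNA than other types, with Ptprc at 152 and 90.3 CPM, and its part in the levels of this class was not tested. In the 12 and 20 HEV-like cells with 0 Ptprc UMIs, Sox18 was at 157 and 225 CPM. VEC-like cells with 0 Ptprc UMIs had 415 and 362 CPM of Sox18. For Tal1, 0 and 2 of 7 pairs of neighbouring classes were separated, and for Lyl1 1 and 1.

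**Figure D2:**
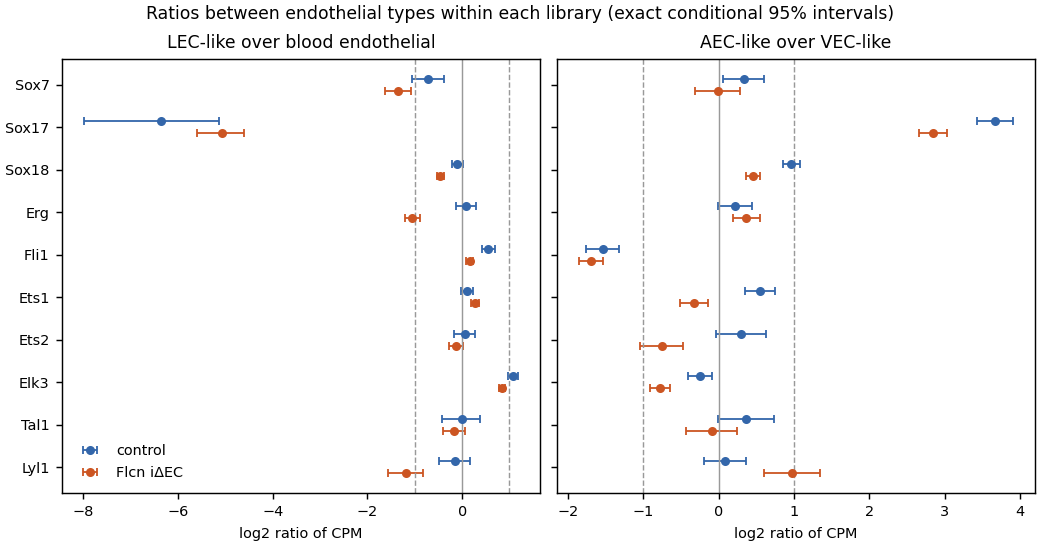
Ratios of CPM between endothelial types within the control (blue) and Flcn iΔEC (orange) library, on log2 axes, with exact conditional 95% intervals and dashed lines at 2-fold. Sox17 lies past 2-fold lower in LEC-like cells and higher in AEC-like cells of both libraries, and Fli1 past 2-fold lower in AEC-like cells.

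The last comparison was between the libraries, and it asked how the factors stood in cells of the same type with and without Flcn. Prox1 is a gene on which SoxF factors act in the lymphatic lineage, and its level in VEC-like cells was 52.2 CPM for the control and 204 CPM for Flcn iΔEC mice. Because the share of each type differed between the libraries, values for all endothelial cells mix the level in a type with the number of its cells. The values by type are therefore given for the genes that moved, and the same limit over all genes gives the background.

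In all endothelial cells 3 of 10 members were past 2-fold lower in the Flcn iΔEC library, where 6.24% of 12798 genes were, and 0 were higher, where 3.78% were. Lyl1 fell to a ratio of 0.303 (0.267 to 0.343), Sox7 to 0.467 (0.422 to 0.516) and Sox17 to 0.490 (0.462 to 0.520). In cells with 0 Ptprc UMIs these ratios were 0.265, 0.339 and 0.335. In cells with 2 or more Ptprc UMIs they were 0.343, 0.755 and 1.04, the last with an interval of 0.901 to 1.21. The part of leukocyte RNA in them was not tested. Giving the 5 types equal weight takes out their different numbers and leaves out unassigned cells. With it Lyl1 had a ratio of 0.304, Sox7 of 0.582 and Sox17 of 0.630, so of these Lyl1 alone was past 2-fold. The median log2 ratio of the 10 members was -0.50, against -0.13 for all genes. Erg (0.725), Ets1 (0.687), Ets2 (0.729), Sox18 (0.692) and Tal1 (0.808) were lower by less than 2-fold. Fli1 was higher, at 1.23 (1.17 to 1.29), and Elk3 was at 1.11 but at 0.913 with equal weight of types and 0.985 in cells with 0 Ptprc UMIs.

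Within types, LEC-like cells had 3 of the 9 members with at least 50 counts past 2-fold lower, where 7.40% of 10281 genes were. They were Sox7, Erg and Lyl1, and 0 were higher, where 4.06% were. In AEC-like cells 3 of 10 were lower, where 4.84% of 8825 genes were, namely Sox7, Ets1 and Lyl1, and 0 were higher, where 2.55% were. Lyl1 was the only member past the limit in each of the other types, where Sox7 in VEC-like cells lay close to it. The share of all genes past the limit was 4.72% lower and 2.61% higher in capillary-like cells, 5.19% and 3.25% in VEC-like cells, and 1.96% and 3.07% in HEV-like cells, and 0 members were higher in any type.

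**Figure D3:**
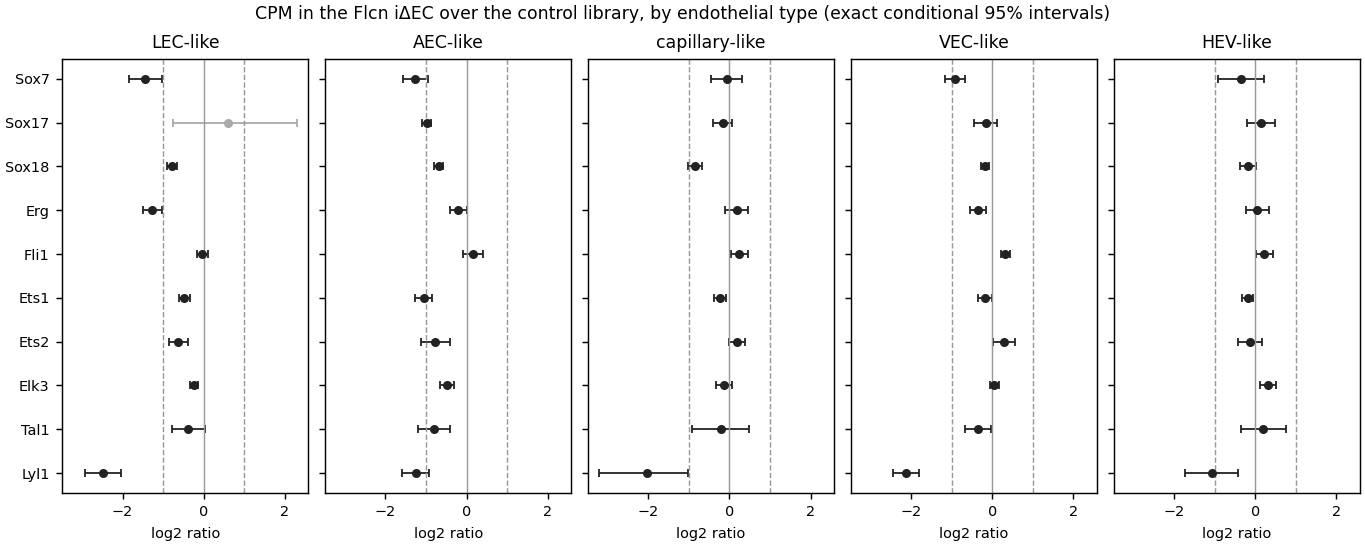
Ratio of CPM in the Flcn iΔEC over the control library for each factor in 5 endothelial types, on log2 axes, with exact conditional 95% intervals, dashed lines at 2-fold, and grey for Sox17 in LEC-like cells, which had under 50 counts. Lyl1 lies past 2-fold lower in each type and Erg in LEC-like cells.

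Lyl1 was past the limit in 5 of 5 types, although the HEV-like value did not hold in cells with little leukocyte RNA, and with types taken from clusters the AEC-like log2 ratio of -0.98 lay just inside the limit. VEC-like cells had 77.5 and 17.7 CPM, a ratio of 0.229 (0.182 to 0.286). LEC-like cells had 45.8 and 8.26 CPM, a ratio of 0.180 (0.132 to 0.245). AEC-like cells, which had the highest level in both libraries, had 82.2 and 34.6 CPM, a ratio of 0.421 (0.333 to 0.530). The decrease was thus present in venous, lymphatic and arterial classes, and it was smallest of these types in AEC-like cells. Of the AEC-like classes, Cxcl12-low cells had 102 and 35.2 CPM, a ratio of 0.345 (0.270 to 0.441), and Cxcl12-high cells had 34 and 6 UMIs, a ratio whose interval of 0.196 to 1.38 includes 1. Capillary-like cells had 25.7 and 6.34 CPM, the latter from 9 UMIs, and HEV-like cells had 19.7 and 9.36 CPM. In the VEC-like classes, Lyl1 had ratios of 0.261 in Prox1-low and 0.222 in Prox1-positive cells, so cells with little Prox1 had the decrease as well. Lyl1 was also lower in each lymphocyte class of the Flcn iΔEC library, although these cells were not targeted. B cells had a ratio of 0.898 (0.829 to 0.972), T cells, with 46 and 7 UMIs, of 0.367 (0.140 to 0.819), and innate lymphoid and NK cells, with 23 and 5 UMIs, of 0.319 (0.0947 to 0.857). The B-cell gene Cd79a was also lower in T cells, at 38.3 and 19.1 CPM, and in innate lymphoid and NK cells, at 46.3 and 28.1 CPM. The part of B-cell RNA in these Lyl1 values was not tested. Over all lymphocytes, of which B cells were 2374 of 5123 and 1344 of 2573, the ratio was 1.07 (0.986 to 1.15).

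RNA of other blood cells differed between the libraries too, and its part in the values of Lyl1 was not tested. The B-cell gene Cd79a was at 73.4 and 28.6 CPM in all endothelial cells. It was lower in the Flcn iΔEC library in AEC-like (49.1 and 16.4 CPM), capillary-like (68.8 and 16.2 CPM) and HEV-like cells (208 and 58.4 CPM), nearly equal in VEC-like cells (19.4 and 17.6 CPM) and higher in LEC-like cells (17.1 and 27.3 CPM). The platelet gene Pf4 was at 30.7 and 6.36 CPM in all endothelial cells, with most of its UMIs in HEV-like cells, at 126 and 33.0 CPM. In LEC-like cells Pf4 was at 16.6 and 2.14 CPM, and in VEC-like cells it had 3 UMIs and 1 UMI. The hemoglobin gene Hbb-bs went the other way, at 22.1 and 327 CPM in all endothelial cells, and 8130 of its 8903 UMIs in the Flcn iΔEC library lay in the 71 unassigned cells, which are part of the values for all endothelial cells. Among endothelial cells with 0 Ptprc UMIs, a selection made after the data were seen, 382 control cells had 58.8 CPM of Lyl1 and 697 Flcn iΔEC cells had 15.6 CPM, a ratio of 0.265 (0.227 to 0.310). The proliferation gene Mki67 was at 112 and 57.0 CPM in LEC-like and at 151 and 36.7 CPM in capillary-like cells, nearly equal in VEC-like cells at 80.2 and 80.9 CPM, and higher in HEV-like cells at 44.1 and 68.0 CPM, and its part was not tested either. In HEV-like cells the Lyl1 UMIs of the control lay almost entirely in cells with leukocyte RNA. Of 54 UMIs, 53 were in the 35 cells with at least 2 Ptprc UMIs (22.9 CPM), which also held most UMIs of all genes in this class. The other 16 control cells had 1 UMI (2.33 CPM) against 11 UMIs (12.5 CPM) in 26 Flcn iΔEC cells, a ratio of 5.39 (0.783 to 232). A decrease of Lyl1 in HEV-like cells themselves was therefore not detectable at this depth.

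**Figure D4:**
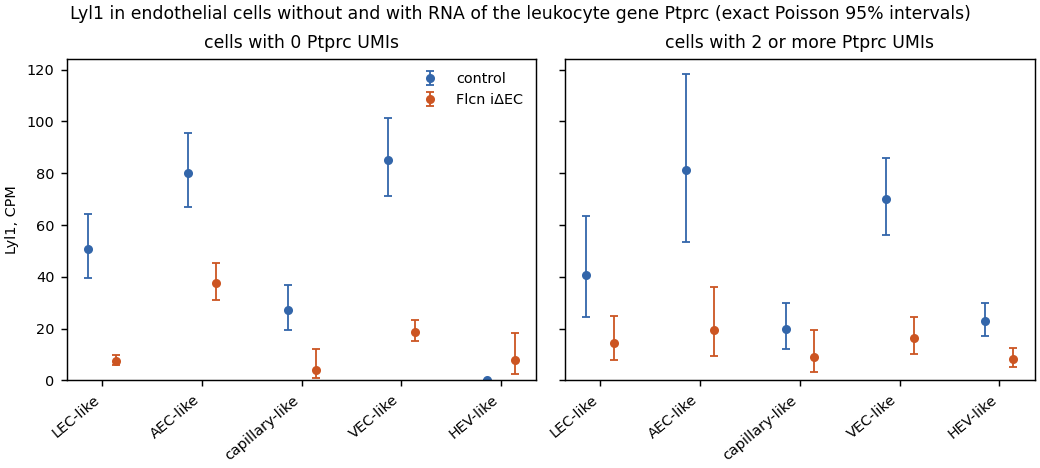
Lyl1 (CPM of summed UMIs, linear axis from 0) by endothelial type in cells with 0 (left) and with 2 or more (right) UMIs of the leukocyte gene Ptprc, in the control (blue) and Flcn iΔEC (orange) library, with exact Poisson 95% intervals and no bar for a count of 0. Without Ptprc RNA, Lyl1 falls from 85.3 to 18.8 CPM in VEC-like and from 50.9 to 7.61 CPM in LEC-like cells, while control HEV-like cells have 0 counts.

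Tal1, the relative of Lyl1 with the same partners, was within 2-fold in each of 5 types, and 2 of them had an interval below 1. VEC-like cells had 40.4 and 31.7 CPM and LEC-like cells 31.7 and 24.2 CPM, and the ratio in 5 types ranged from 0.574 in AEC-like to 1.15 in HEV-like cells, the latter with an interval that includes 1. In cells with 0 Ptprc UMIs it was 0.623 (0.473 to 0.827) in VEC-like and 0.626 (0.459 to 0.857) in AEC-like cells. In LEC-like cells with 0 Ptprc UMIs it was 0.718, with an interval just below 1 (0.524 to 0.9999). Whether the change of Tal1 differs from that of Lyl1 was not tested. In Cxcl12-high AEC-like cells Tal1 had 41 UMIs (53.4 CPM) for the control and 0 in the 13 Flcn iΔEC cells, which allows up to 12.7 CPM. The start regions of both genes are shown with that of Erg, the ETS gene past the limit in LEC-like cells, since ETS and Tal1 proteins act on genes of their own families. The sequences are from RefSeq on GRCm38.p6, each 300 bases long around the start, and 5 of the 10 members had one. They belong to Lyl1 (chr8:84701207-84701506, plus strand), Tal1 (chr4:115056176-115056475, plus strand) and Erg (chr16:95586544-95586843, minus strand, the start that is also the start of the annotated gene). Capitals mark the ETS core GGAA or its reverse complement TTCC.
Lyl1: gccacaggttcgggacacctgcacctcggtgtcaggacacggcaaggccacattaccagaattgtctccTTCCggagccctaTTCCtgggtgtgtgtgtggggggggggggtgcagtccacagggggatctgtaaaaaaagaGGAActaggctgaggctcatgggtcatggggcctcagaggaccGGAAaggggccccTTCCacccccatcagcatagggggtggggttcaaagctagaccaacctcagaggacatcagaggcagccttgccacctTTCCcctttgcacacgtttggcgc
Tal1: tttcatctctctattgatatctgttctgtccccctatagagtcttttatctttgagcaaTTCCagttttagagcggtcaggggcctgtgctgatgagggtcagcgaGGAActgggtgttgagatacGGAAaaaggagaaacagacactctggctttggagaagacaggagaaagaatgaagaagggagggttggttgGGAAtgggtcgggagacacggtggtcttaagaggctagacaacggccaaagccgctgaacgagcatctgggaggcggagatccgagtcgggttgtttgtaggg
Erg: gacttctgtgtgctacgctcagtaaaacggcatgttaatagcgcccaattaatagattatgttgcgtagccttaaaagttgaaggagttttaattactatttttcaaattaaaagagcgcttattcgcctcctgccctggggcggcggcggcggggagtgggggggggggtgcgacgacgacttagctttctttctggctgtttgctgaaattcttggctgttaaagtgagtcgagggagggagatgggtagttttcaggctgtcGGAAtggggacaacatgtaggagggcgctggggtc

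The Lyl1 region held 6 matches to GGAA on either strand, the Tal1 region 4 and this Erg region 1. The other listed starts differed, with 4 and 2 matches in 2 further Erg regions and 4 in a further Tal1 region. Of 32851 promoters of the same length, 96.0% held at least 1 match, with a median of 3. The SoxF-type motif ACAAT was present once in the Lyl1 region and in 31.0% of all promoters. The Gata-type motif GATAA was present once in the Tal1 region and in 25.4% of all promoters, and the E-box CANNTG was present once in both the Lyl1 and the Tal1 region and in 72.3% of all. The E-box CACGTG, a form that Tfe3 can bind, was present in 0 of the 3 regions and in 7.15% of all promoters. The Erg region with 2 GGAA matches also held 2 ACAAT, 1 GATAA and 2 CANNTG matches. A match is a description of the letters in the window and does not show binding.

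Sox7 fell in LEC-like cells from 39.0 to 14.4 CPM, a ratio of 0.369 (0.278 to 0.491), and in AEC-like cells from 96.9 to 40.5 CPM, a ratio of 0.418 (0.337 to 0.516). In VEC-like cells it fell from 77.2 to 40.8 CPM, a ratio of 0.529, just inside the limit, but those with 0 Ptprc UMIs had a ratio of 0.459 (0.367 to 0.575), past it. In capillary-like cells it was nearly equal, at 65.9 and 62.7 CPM. In HEV-like cells the ratio was 0.784 (0.526 to 1.17), and in the few with under 2 Ptprc UMIs, with 18 and 8 Sox7 UMIs, it was 0.218 (0.0819 to 0.526). The ratio of the AEC-like type lay between those of its classes. Within Cxcl12-low AEC-like cells the ratio was 0.595 (0.458 to 0.774), and within the Cxcl12-high class 0.197 (0.0776 to 0.420), the latter from 7 UMIs in 13 Flcn iΔEC cells.

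For Sox17 and Ets1, the ratio of the AEC-like type was lower than that of either class, and both genes were higher in the Cxcl12-high class, which held fewer of the Flcn iΔEC cells. Sox17 had a ratio of 0.506 in AEC-like cells as a whole (0.473 in those with 0 Ptprc UMIs) but 0.744 (0.671 to 0.827) in the Cxcl12-low and 0.810 (0.696 to 0.940) in the Cxcl12-high class. Ets1 fell in AEC-like cells from 187 to 90.1 CPM, a ratio of 0.481, but had ratios of 0.704 (0.581 to 0.856) and 0.653 (0.472 to 0.888) in these classes, the latter turning to a log2 ratio of 0.11 in cells with 0 Ptprc UMIs. Ets1 was thus past 2-fold in the type and in neither of its classes. For Sox17 in VEC-like cells the interval of 0.736 to 1.09 includes 1, while in those with 0 Ptprc UMIs the ratio was 0.712 (0.562 to 0.907). Mki67 was also lower in AEC-like cells, at 116 and 39.7 CPM, and its part in these values was not tested.

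Sox18 was lower in LEC-like (0.581), AEC-like (0.619) and capillary-like cells (0.556), where it fell from 439 to 244 CPM. In VEC-like cells its ratio was 0.882 (0.821 to 0.947), and the classes by Prox1 differed. Sox18 fell from 384 to 281 CPM in Prox1-low VEC-like cells, while 15 control cells of the Prox1-positive class had 295 CPM and 72 Flcn iΔEC cells had 378 CPM, a ratio of 1.28 (1.08 to 1.52). This higher value rests on few control cells and on the choice of cells. Its log2 ratio of 0.35 became -0.01 without cells that had at least 2 Ptprc UMIs and 0.77 with types taken from clusters. Within the Flcn iΔEC library, Sox18 was 1.34-fold (1.23 to 1.46) higher in Prox1-positive than in Prox1-low VEC-like cells. Within the control the order was the other way, with a ratio of 0.770 (0.647 to 0.912). The Prox1 limit was not scaled to depth, and Prox1-positive cells were deeper, with medians of 30232 and 38937.5 UMIs. Prox1-low cells had 23581 and 21138.5 UMIs.

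Erg was past the limit in LEC-like cells, where it fell from 110 to 45.6 CPM, a ratio of 0.414 (0.352 to 0.488). Both LEC-like classes showed it, with 0.350 (0.269 to 0.457) in Lyve1-high and 0.462 (0.374 to 0.573) in Lyve1-low cells, though in the latter the log2 ratio was -0.98 when cells with 1 Cdh5 UMI were included. After thinning, an Erg UMI was present in 37.6% and 20.3% of LEC-like cells, against 77.3% and 66.9% without thinning. In T cells it was present in 0.224% of the control, and 0 of 914 Flcn iΔEC cells had it. Mki67 was lower in LEC-like cells too, at 112 and 57.0 CPM, and its part in the values of Erg and Sox7 was not tested. In the other types Erg moved less, with ratios from 0.781 in VEC-like to 1.13 in capillary-like cells, and whether the decrease in LEC-like cells differs from these was not tested. Fli1, its closest relative, had a ratio of 0.977 (0.888 to 1.08) in LEC-like cells. Fli1 was highest in Prox1-positive VEC-like cells of Flcn iΔEC mice, at 395 CPM against 284 CPM for the control, a ratio of 1.39 (1.17 to 1.66), and in Prox1-low VEC-like cells it stood at 264 and 282 CPM. The Prox1-positive classes, of 15 and 72 cells, were unlike, with Prox1 at 164 and 417 CPM and Ptprc at 69.6 and 8.19 CPM. The part of this in the Fli1 ratio was not tested.

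Ets2 fell in LEC-like and AEC-like cells, to ratios of 0.647 and 0.587, and was higher in VEC-like cells, at 1.22 (1.01 to 1.46), but at 1.05 (0.832 to 1.33) in those with 0 Ptprc UMIs. Elk3 fell in LEC-like and AEC-like cells, to 0.850 and 0.716, and was higher in HEV-like cells, at 1.25 (1.09 to 1.44), but at 0.956 (0.696 to 1.32) in those with under 2 Ptprc UMIs and 0.805 (0.562 to 1.16) in those with 0. Under 11 alternatives, among them leaving out cells with Ptprc UMIs and assigning types anew to the others, Elk3 in HEV-like cells kept a log2 ratio above 0, from 0.09 to 0.35. Both genes were within 2-fold in each of the 5 types, though with types from clusters Ets2 in AEC-like cells had a log2 ratio of -1.16. Across the 5 types, each member that passed the limit did so in the lower direction.

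The wider families were read for comparison. Of 21 further ETS genes, 16 had at least 50 counts in endothelial cells, 3 were past 2-fold lower in the Flcn iΔEC library and 0 higher, and their median log2 ratio was -0.32. Of all 12798 genes in that comparison, 6.24% were lower and 3.78% higher. The lower genes were Ehf, Spi1 and Spib, which were named after their values were seen. The most abundant, Elf2, stood at 121 and 99.6 CPM. Ptprc (81.6 and 32.4 CPM) and Cd79a (73.4 and 28.6 CPM) were lower in the same cells, and the part of leukocyte RNA in these values was not tested. The part of epithelial RNA was not tested either, and the cluster led by epithelial genes held 44 control and 26 Flcn iΔEC endothelial cells. In LEC-like cells, 1 of 12 further ETS genes was lower (Spib) and 2 were higher (Etv4 and Elf3), where 7.40% and 4.06% of all genes were. In each other type 0 were higher. Of 17 further Sox genes 8 were tested, 2 were lower and 0 higher, with a median of -0.46. The lower genes were Sox11, at 49.7 and 18.6 CPM, and Sox12, at 16.5 and 6.54 CPM, and Sox4, the most abundant, was within 2-fold at 420 and 582 CPM. By type, Sox9 was past the limit higher in LEC-like cells and lower in VEC-like and HEV-like cells. Of 15 partners of Tal1 and Lyl1, 13 were tested, 1 (Lmo1) was lower and 0 higher, with a median of -0.48. Lmo2, which bridges Tal1 or Lyl1 to Gata factors, stood at 390 and 525 CPM, the E-protein gene Tcf4 at 679 and 489 CPM, and Ldb2 at 94.0 and 168 CPM. These 3 partners stayed within 2-fold. Of 32 endothelial genes known as targets of SoxF or ETS factors, 5 were lower (Notch4, Robo4, Apln, Aplnr and Nrp1) and 1 higher (Flt4), with a median of -0.49. By type, 9 of 29 tested targets were lower in LEC-like cells, where 7.40% of all genes were. In AEC-like cells 6 of 30 were lower (4.84% of all genes), in capillary-like 3 of 32 (4.72%), in VEC-like 4 of 32 (5.19%) and in HEV-like 1 of 30 (1.96%). Higher targets numbered 0, 1, 2, 2 and 1 in the same order, where 4.06%, 2.55%, 2.61%, 3.25% and 3.07% of all genes were higher. Nrp1 was higher in HEV-like cells, and Notch4 passed the limit in 0 of 5 types. Cdh5, a target of Erg and the gene that selected the cells, stood at 674 and 541 CPM, and Vwf at 771 and 431 CPM. Each of these medians has the median of all 12798 genes, -0.13, beside it. Against lymphocytes, 31 of 32 targets, 6 of 8 Sox genes, 7 of 13 partners and 3 of 13 ETS genes were 2-fold higher in endothelial cells of both libraries, where 28.2% of all genes were, and 2 ETS genes and 1 partner were 2-fold lower. Cdh5 counts among these targets, and its call was fixed by the rule that selected the cells. The other targets were also chosen as endothelial genes, so their calls against lymphocytes follow from that choice. Flt4, Efnb2, Dll4, Kdr, Apln, Vwf and Aplnr were markers that assigned the types as well, so their calls by type are not independent of the types.

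Finally, the genes most like each member were sought over 32 groups of cells, the classes of each library with at least 10 cells. Besides endothelial and lymphocyte classes, these were macrophages and dendritic cells, neutrophils, erythroid cells, megakaryocytes and platelets, and mesenchymal cells. The groups share libraries and are not independent, and r is Pearson's r of log2 CPM with 1 added, over 12798 genes. Among members, r was 0.97 between Sox7 and Sox18, 0.97 between Sox18 and Erg, and 0.96 between Sox7 and Erg, although across endothelial types these genes differed, with control LEC-like levels of 0.611, 0.933 and 1.06 of the blood endothelial level for Sox7, Sox18 and Erg. The gene most like Sox7 was Ccm2l (0.977), the gene most like Sox18 was Cdh5 (0.986), and the gene most like Erg was Myct1 (0.979). Because the groups were set by the presence or absence of Cdh5 UMIs, a high r with Cdh5 is given by that selection for any endothelial gene. Sox17 was most like Syt15 (0.954), Acacb (0.947) and Exoc3l (0.924). Elk3 was most like Kank3 (0.942), and Tal1 most like Pcdhb20 (0.938). Fli1 was most like Mknk2 (0.901), Ets1 like Tle3 (0.853) and Ets2 like Dgkh (0.799). Lyl1 had the lowest value for its most like gene, with Ctsh at 0.773, and its profile held high values in B cells as well as in endothelial classes.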

How the data were processed

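Single CD31+ cells of P8 mouse mesentery had been sequenced as 1 control and 1 Flcn iΔEC library with 3′ v3 chemistry of the Chromium system. The UMI counts per gene and cell were used as deposited, for which the authors had aligned the reads to mm10, removed duplicates and counted with Cell Ranger 3.0. All deposited cells were kept, and the 6 barcodes present in both libraries were treated as different cells. The 10 genes and the gene lists were chosen with earlier results of these data known.

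Analysis used Python 3.11.15 with numpy 2.4.6, scipy 1.17.1, pandas 2.3.3, scanpy 1.11.5 and matplotlib 3.10.9, and the interval code was tested on simulated data. Endothelial cells had at least 2 Cdh5 UMIs. The median endothelial depth of 16127 UMIs in the control and 24415 UMIs for Flcn iΔEC mice sets the precision of the counts. UMIs were summed per class and library and scaled to CPM, with exact Poisson 95% intervals for levels, exact conditional 95% intervals for ratios and exact binomial 95% intervals for shares. A gene was read against a 2-fold limit where it had at least 50 summed counts, a count of 0 was given the limit of 3 counts, and the same limit over all genes gave the background. For shares, cells were thinned to 5000 UMIs with a fixed seed.

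Types came from mean scaled scores of marker lists written beforehand, and a cell whose highest score led the next by less than 0.1 was unassigned. Prox1 was left out of the lymphatic score. Lymphocytes had 0 Cdh5 UMIs, a highest score of at least 0.3 and the same lead. Prox1-positive VEC-like cells had at least 4 Prox1 UMIs, and Lyve1-high and Cxcl12-high cells at least 5 UMIs of the gene per 10000. These limits were set after the data had been seen. A first rule also required a score of at least 0.2, and it was dropped after classes and members' levels had been seen. Clusters (2000 variable genes without the members, 30 components, resolution 1.2) were named by a mean score of at least 0.3, also chosen after they were seen. Scrublet called 142 control and 37 Flcn iΔEC cells doublets, which were kept. Of these, 7 and 3 were endothelial cells.

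Each member, Flcn and up to 8 genes of each list with the most endothelial counts could be named, and the 3 genes most like each member. Genes of the lists past the limit were named after their values were seen. Alternatives were other Cdh5 gates, a quality filter, leaving out doublets or cells with Ptprc UMIs, means of per-cell CPM, CPM after removal of the mitochondrial, hemoglobin and ribosomal protein genes, types from clusters, equal weight of types, a 1.5-fold limit, minimums of 20 and 100 counts, and shares after thinning to 2000 UMIs or without thinning. The first type rule and cells with 0 Ptprc UMIs were added as alternatives after seeing the data.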

Additional observations from a re-analysis of the deposited data

Results flagged for a closer look

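Ets2 and Elk3 moved in opposite directions between the libraries in different endothelial types. Ets2 was higher in Flcn iΔEC VEC-like cells, with a ratio of 1.22, and lower in LEC-like (0.647) and AEC-like cells (0.587). Elk3 was higher in HEV-like cells, with a ratio of 1.25, and lower in LEC-like (0.85) and AEC-like cells (0.716). Each of these ratios had a 95% interval for counting error that did not include 1, and each lay within 2-fold. Among the same cells, those with 0 Ptprc UMIs had ratios of 1.05 (0.832 to 1.33) for Ets2 in VEC-like cells and 0.805 (0.562 to 1.16) for Elk3 in HEV-like cells, and the latter was 0.956 with under 2 Ptprc UMIs. Over 11 alternatives, among them leaving out cells with Ptprc UMIs and assigning types anew to the others, the log2 ratio ranged from 0.01 to 0.33 for Ets2 in VEC-like and from 0.09 to 0.35 for Elk3 in HEV-like cells. With 1 library per group the difference between types was not tested.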

How the results depend on the processing

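No paired analysis was possible because each group was 1 library of pooled mice, so no replicate could be left out. With equal weight of types, 1 member instead of 3 was past 2-fold between the libraries in all endothelial cells, since this setting takes out the libraries' different makeup. A 1.5-fold limit, which admits smaller ratios by construction, gave 17 instead of 9 pairs of member and type between the libraries and 3 instead of 1 member between LEC-like and blood endothelial cells. A minimum of 100 counts gave 7 pairs. The mean of per-cell CPM gave 2 members between LEC-like and blood endothelial cells, and the cause was not tested. Lyl1 in HEV-like cells changed direction, to a log2 ratio of 1.74 without cells that had at least 2 Ptprc UMIs and to 1.85 in cells with 0 Ptprc UMIs, where few counts were left. The number of members above lymphocytes in both libraries ranged from 7 to 8, and the number between AEC-like and VEC-like cells was 2 under each of 14 alternatives. Of 1308 ratios between the libraries under an alternative, 1204 stayed within the interval of the reported ratio, and 60 lay on the other side of 1 from it. Among these 60, the reported ratio was past 2-fold for the 2 values of Lyl1 in HEV-like cells and within 2-fold or under 50 counts for the others. They include Elk3 in all endothelial cells (log2 0.16 to -0.13), Ets1 in Cxcl12-high AEC-like cells (-0.61 to 0.11), Sox18 (-0.17 to 0.60) and Erg (0.06 to -0.63) in HEV-like cells, and Sox17 in LEC-like cells (0.59 to -0.83). Of 440 ratios between types, 385 stayed and 16 lay on the other side of 1, and of 40 shares 40 moved, since those alternatives change the depth. Lyl1 kept its direction under each alternative in LEC-like cells (log2 -2.75 to -2.22), AEC-like (-1.27 to -0.98, the last with types from clusters and inside 2-fold), capillary-like (-3.35 to -1.72) and VEC-like cells (-2.18 to -2.03), and Erg did in LEC-like cells (-1.31 to -1.06). Counts limit Sox17 in LEC-like and Lyl1 in capillary-like and HEV-like cells.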
